A study of Mus musculus with 3 samples.

Results

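The 49 genes described here run or restrain the cell cycle, and they were picked by symbol from the 56748 genes counted by RNAseq in cultured adult mouse cardiomyocytes (ACMs). All 49 were found. They comprise 5 D cyclins and their kinase partners, 4 genes of the E and A cyclins with Cdk2, 3 CIP/KIP inhibitors, 4 INK4 inhibitors, 3 pocket proteins, 8 E2F factors, 7 replication genes, 11 genes of mitosis or proliferation, and 4 genes that respond to stress (Plk2 and the 3 Gadd45 genes).

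ACMs came from wild-type mice 8 to 10 weeks old and were isolated without a Langendorff apparatus. They were plated for 3 to 4 h with 5% fetal bovine serum, moved to serum-free M199 medium with 10 mM 2,3-butanedione monoxime, a contraction inhibitor, and insulin, transferrin and selenium, and then treated for 16 h. The 3 groups were vehicle (0.1% BSA), 10 ng/mL mouse oncostatin M (OSM) and 10 ng/mL human interleukin-6 (IL-6). OSM and IL-6 are cytokines whose receptors use gp130 and JAK kinases, and the study asked which genes OSM turns on through its receptor and JAK1. RNA was pooled before sequencing, and each group was 1 library, in which 24939980 (vehicle), 26362446 (IL-6) and 30773001 (OSM) counts fell on genes. No difference given here therefore has a replicate check, and none has a P-value.

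In a dividing cell, D cyclins with CDK4 or CDK6, and then cyclin E with CDK2, phosphorylate the pocket proteins and so release E2F transcription factors, which turn on genes for DNA replication. INK4 proteins block CDK4 and CDK6, while CIP/KIP proteins bind cyclin-CDK complexes more broadly. Mitosis is run by CDK1 with B cyclins and by the Aurora and Polo kinases. Most cardiomyocytes of the adult mouse have left the cell cycle, and cyclin and CDK levels are low in them.

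The cells held cardiomyocyte RNA and little of other types. The 8 cardiomyocyte markers examined, among them Myh6 and Tnnt2, summed to between 26919 and 30490 CPM (counts scaled to the same total in every library). Within that sum, single markers differed with OSM in both directions. With vehicle, IL-6 and OSM, Ryr2 had 906, 894 and 301 CPM and Ttn had 758, 774 and 234 CPM. In the same order, Tnni3 had 2632, 2769 and 4044 CPM and Myl2 had 4526, 4675 and 6659 CPM. The sums of 8 markers each were 5.46 to 6.37 CPM for fibroblasts, 7.28 to 8.70 CPM for macrophages and 39.9 to 42.1 CPM for endothelial cells. Single fibroblast markers differed in both directions. With vehicle, IL-6 and OSM, Dcn had 49, 48 and 131 counts and Col1a2 had 14, 41 and 6. Col1a1, Postn and Tcf21 had 0 counts with OSM and at most 6 in the other libraries. Ptprc, C1qa and C1qb, which mark leukocytes and macrophages, had 0 counts in every library. Other macrophage markers were detected. Csf1r had 187, 166 and 209 counts with vehicle, IL-6 and OSM, most of the macrophage sum. Lyz2 had 13, 4 and 31 counts and Cd14 had 8, 22 and 18. The smooth muscle and pericyte list was the exception, with 205 CPM for vehicle, 235 CPM after IL-6 and 109 CPM after OSM. Most of that was Abcc9, at 169, 195 and 65.1 CPM, a potassium channel subunit that cardiomyocytes also express. The rest of the list did not share its lower OSM value throughout. Acta2 had 27.1, 27.3 and 30.4 CPM and Cspg4 had 4.45, 8.31 and 9.42 CPM, both highest with OSM. Rgs5 was lowest with OSM, at 2.93, 1.97 and 1.49 CPM. Whether this list has a part in any result below was not tested. In RNA from a whole culture, fewer cells of a type and less RNA per cell cannot be told apart.

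The level of the 49 genes was set by a few of them. Together they took 0.189% of all counts with vehicle, 0.189% with IL-6 and 0.214% with OSM. Levels between genes are given as the authors' FPKM (fragments per kilobase, scaled to library size), which allow for gene length. At least 10 FPKM was reached by 10 genes with vehicle, 10 with IL-6 and 11 with OSM, and at least 1 FPKM by 25, 26 and 24. Fewer than 10 counts were found for 12, 12 and 13 genes, of which 6, 2 and 6 had 0 counts. The upper end was held by the stress-inducible genes, the inhibitor Cdkn1a and the cyclin Ccnd2. With vehicle the order was Plk2, Cdkn1a, Gadd45g, Gadd45a and then Ccnd2, and with OSM it was Gadd45g, Cdkn1a, Gadd45a, Plk2 and then Gadd45b. The genes of mitosis lay at the lower end.

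**Figure D1:**
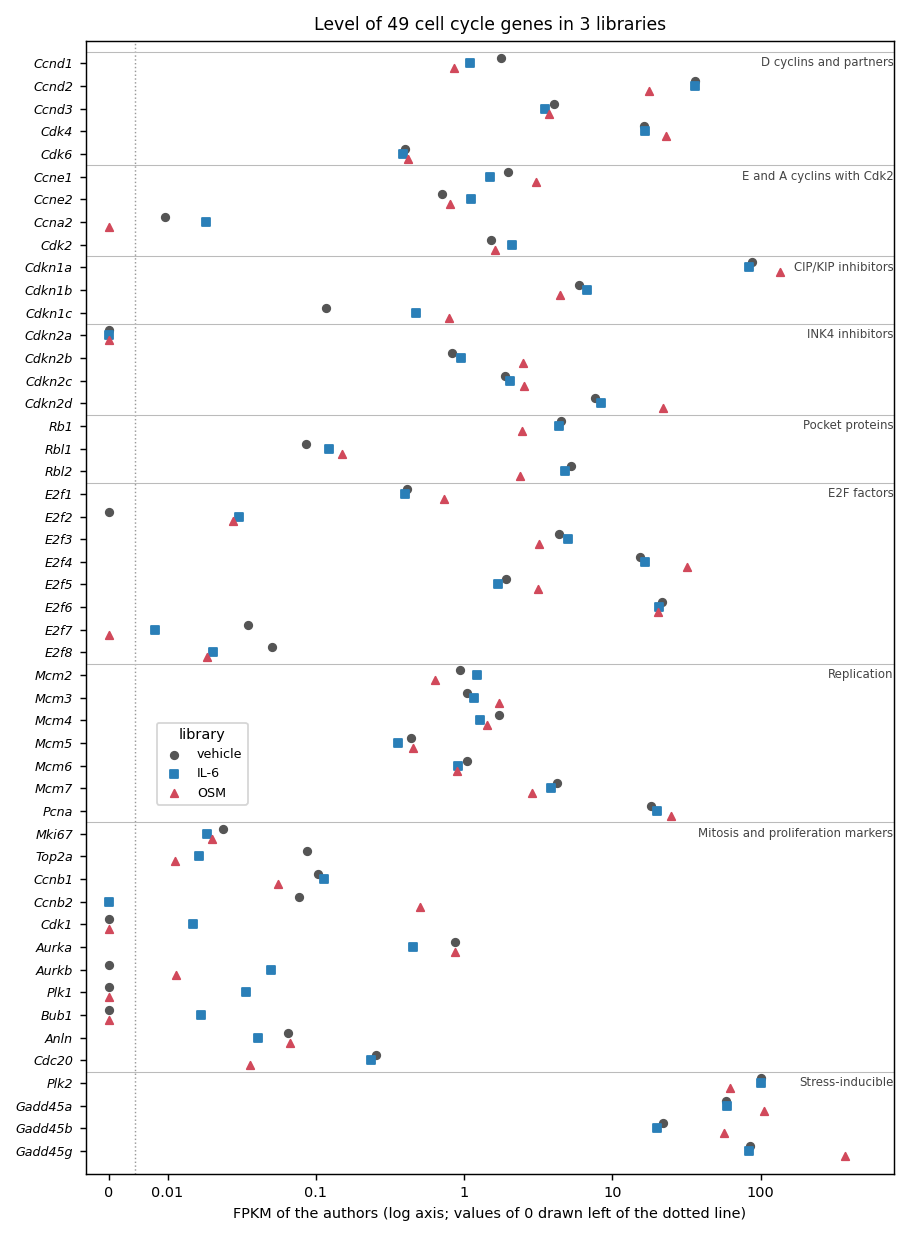
Level of each of the 49 genes in the vehicle (grey circles), IL-6 (blue squares) and OSM (red triangles) libraries, in FPKM on a log axis, by role, with values of 0 drawn left of the dotted line. Gadd45g is the highest symbol, at 373 FPKM with OSM, and every gene of mitosis lies under 1 FPKM in every library.

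A fold change is given where the counts of a gene sum to 10 or more over a pair of libraries. Counts were scaled by TMM, a factor per pair that assumes most genes to be alike, and each log2 ratio has a 95% interval that covers counting error only. A gene was called higher or lower where this whole interval lay beyond 2-fold. The vehicle library enters 2 of the 3 comparisons, as does each of the others, so that the comparisons are not independent of one another.

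OSM against vehicle is the comparison the study was made for. Of the 41 genes compared, 4 were called higher, namely Gadd45g, Gadd45b, Cdkn2d and Cdkn1c. Over all 15537 genes compared, 3.74% were called higher. Only Top2a was called lower, against 5.43% of all genes. With the looser reading that the interval excludes 0, 16 genes were higher and 12 lower, where 33.4% and 33.1% of all genes were. The median log2 fold change of the 41 genes was 0.05, and that of all genes was 0.00. Among the well-counted genes, the Gadd45 genes, Cdkn1a, Cdkn2d, E2f4, Cdk4 and Pcna lay above vehicle, and Plk2, Ccnd2, Rb1, Rbl2, Cdkn1b and E2f3 lay below it, while E2f6 and Ccnd3 were within 0.10 of it on the log2 scale.

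IL-6 against vehicle gave no call among 41 genes. Of all 15472 genes compared, 1.77% were called higher and 1.74% lower. The interval excluded 0 upwards for 7 genes and downwards for 9, against 19.6% and 19.1% of all genes. The median log2 fold change was -0.05, and that of all genes was 0.00.

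OSM against IL-6 gave 4 genes called higher among 39, namely Gadd45g, Gadd45b, Cdkn2d and Ccnb2, against 4.24% of all 15544 genes. None was called lower, against 5.42% of all genes. The interval lay above 0 for 16 genes and below 0 for 11, and 33.2% of all genes lay on each side. The median was 0.29, and that of all genes was 0.00.

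**Figure D2:**
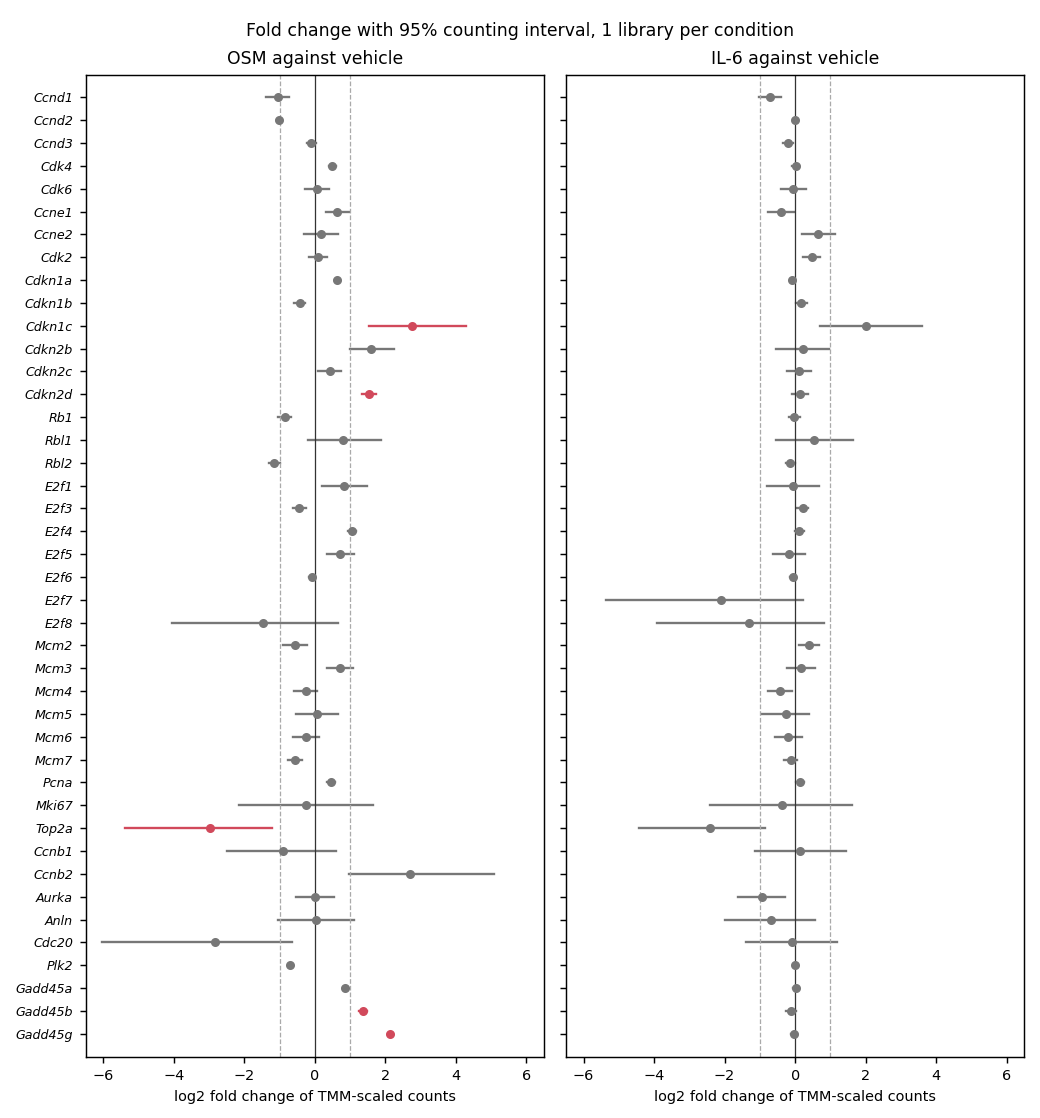
Log2 fold change of TMM-scaled counts for each compared gene, OSM against vehicle on the left and IL-6 against vehicle on the right, with lines for the 95% counting interval and dashed lines at 2-fold. Coloured points are the called genes (Gadd45g, Gadd45b, Cdkn2d, Cdkn1c and Top2a with OSM), and no gene is coloured on the IL-6 side, where most points lie near 0.

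The stress-inducible genes had the highest summed level of the role groups and the largest well-counted difference. GADD45 proteins bind partners such as PCNA, p21 and CDK1 and are turned on by DNA damage and other stress. Gadd45g (chr13:52000714-52002504 on GRCm39, plus strand) had 2513 counts with vehicle, 2638 with IL-6 and 13082 with OSM, or 84.7, 83.0 and 373 FPKM. The OSM library stood alone above the others, at 4.40 times vehicle (log2 2.14, interval 2.08 to 2.2) and 4.50 times IL-6. The difference between IL-6 and vehicle was within counting error (log2 -0.03, interval -0.11 to 0.05).

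Gadd45b (chr10:80765907-80768038, plus strand) had 881 counts with vehicle, 866 with IL-6 and 2699 with OSM, or 21.9, 20.1 and 56.9 FPKM. It was 2.59 times as high with OSM as with vehicle (log2 1.37, interval 1.26 to 1.48) and 2.83 times as high as with IL-6. Without the length trend described below these became 1.93 and 2.13 times, and neither was called. Gadd45a, a known target of p53, was also highest with OSM but did not reach 2-fold, with 2609, 2827 and 5602 counts and a log2 fold change of 0.86 (interval 0.79 to 0.93). The 3 genes summed to 165 FPKM with vehicle, 162 with IL-6 and 537 with OSM. Gadd45g made up 51.3%, 51.2% and 69.6% of that sum, so the family was not only higher with OSM but also more of 1 gene.

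Plk2 is a Polo-like kinase that acts around entry into S phase and in response to stress, apart from the mitotic role of Plk1. It was the member with the highest level with vehicle and differed in the other direction. Its counts were 11520 with vehicle, 12266 with IL-6 and 8398 with OSM, or 101, 101 and 62.6 FPKM. Vehicle and IL-6 were alike within counting error (log2 -0.01, interval -0.05 to 0.03), and OSM was lower by 1.62 times (log2 -0.70, interval -0.74 to -0.66), short of the 2-fold rule.

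The sequences before the start of Gadd45g and Gadd45b are shown because these 2 stress-inducible genes were called higher with OSM against each of the other libraries. Sequences are from RefSeq on GRCm38.p6, whereas the counts were made on GRCm39. Capitals mark TATAAA, the letters of a TATA box, searched on either strand after the windows had been read.
Gadd45g, 250 bases before the start (chr13:51846425-51846674, plus strand): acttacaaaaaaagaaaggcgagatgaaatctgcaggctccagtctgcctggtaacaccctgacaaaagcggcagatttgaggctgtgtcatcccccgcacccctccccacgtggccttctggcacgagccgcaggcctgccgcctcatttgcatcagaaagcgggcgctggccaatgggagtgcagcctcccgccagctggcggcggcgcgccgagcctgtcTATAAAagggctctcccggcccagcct
Gadd45b, 250 bases before the start (chr10:80929841-80930090, plus strand): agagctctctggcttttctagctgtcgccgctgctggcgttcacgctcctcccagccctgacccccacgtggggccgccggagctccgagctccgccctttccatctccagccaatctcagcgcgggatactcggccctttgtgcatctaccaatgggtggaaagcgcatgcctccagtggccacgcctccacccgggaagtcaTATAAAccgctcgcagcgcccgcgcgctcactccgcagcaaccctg
The letters begin at position -27 from the start in Gadd45g and -46 in Gadd45b, counted from 0 at the start itself. TATAAA was found in 3 of the 39 member genes with a window of 300 bases (250 before and 50 after the start), the third being Cdk6, and in 15.7% of all 27025 genes in the table. TTCNNNGAA, the letters that STAT factors bind, was found in 1 of the 39, Mcm5, and in 9.55% of all genes. None of the 4 stress-inducible genes held it in this window, which says nothing of the bases outside it.

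**Figure D3:**
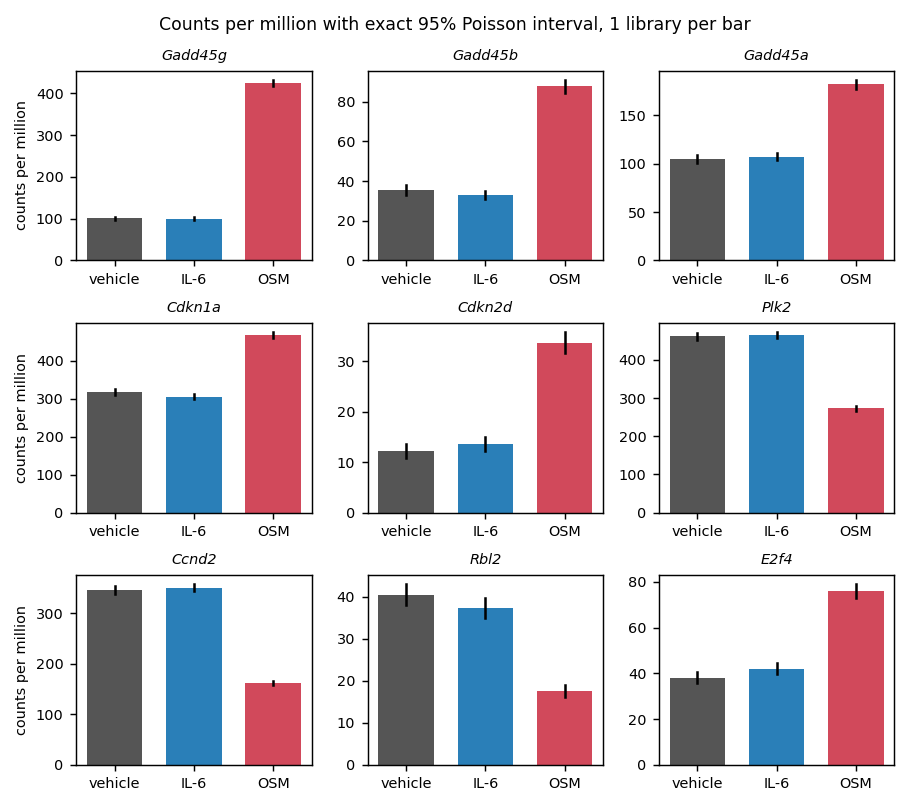
CPM of 9 genes in the vehicle, IL-6 and OSM libraries, 1 library per bar, with the exact 95% Poisson interval as a black line. In each panel the vehicle and IL-6 bars are near each other and the OSM bar stands apart, above them for the Gadd45 genes, Cdkn1a, Cdkn2d and E2f4 and below them for Plk2, Ccnd2 and Rbl2.

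The CIP/KIP inhibitors were dominated by Cdkn1a, which encodes p21, the inhibitor that p53 turns on to hold cells before S phase. It had 7925 counts with vehicle, 8039 with IL-6 and 14411 with OSM, or 88.2, 83.5 and 136 FPKM. OSM was higher than vehicle by 1.54 times (log2 0.62, interval 0.58 to 0.66), under the 2-fold rule, while IL-6 was close to vehicle (log2 -0.08). Cdkn1a made up 93.5%, 92.0% and 96.3% of the summed level of its family.

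Cdkn1b, which encodes p27, an inhibitor known from resting cells, had 691, 837 and 606 counts, or 6.0, 6.79 and 4.46 FPKM. Its OSM value was the lowest of the 3 (log2 -0.43 against vehicle, interval -0.59 to -0.27). Cdkn1c (chr7:143012076-143014787, minus strand), which encodes p57 and is imprinted, had 6, 26 and 48 counts, or 0.116, 0.471 and 0.788 FPKM. It was called higher with OSM at 6.77 times vehicle (log2 2.76, interval 1.53 to 4.27), from a level at which a few counts move the ratio. IL-6 was higher than vehicle by 4.04 times, and its interval of 0.70 to 3.59 on the log2 scale reached under 2-fold, so it was not called. OSM lay above IL-6 by 1.67 times (log2 0.74, interval 0.03 to 1.49), without a call. Less the length trend described below, that interval was -0.30 to 1.16 and held 0. The vehicle library thus held the low value of Cdkn1c.

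Among the INK4 inhibitors the level lay in Cdkn2d (chr9:21199706-21202703, minus strand), which encodes p19INK4d. It had 303 counts with vehicle, 358 with IL-6 and 1038 with OSM, or 7.61, 8.39 and 22.1 FPKM. It was called higher with OSM, at 2.90 times vehicle (log2 1.53, interval 1.35 to 1.72) and 2.63 times IL-6. Without the length trend described below these became 2.16 and 1.98 times, and neither was called. Cdkn2b, which encodes p15INK4b, had 29, 36 and 104 counts, and its interval against vehicle ended just short of the rule (log2 1.60, interval 1.00 to 2.25). Cdkn2c had 129, 149 and 204 counts (log2 0.42). Cdkn2a, whose locus also encodes p19ARF and is known from senescent cells, had 0 counts in all 3 libraries, which by a floor of 3 counts allows up to 0.120 CPM in the vehicle, 0.114 CPM in the IL-6 and 0.0975 CPM in the OSM library. The INK4 genes summed to 10.3, 11.4 and 27.1 FPKM, and Cdkn2d was 73.6%, 73.7% and 81.4% of that.

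The D cyclins, the partners of CDK4 and CDK6, were lower with OSM in sum, at 42.1 FPKM with vehicle, 40.9 with IL-6 and 22.4 with OSM. Nearly all of the difference was Ccnd2, the cyclin that made up 86.2%, 88.8% and 79.3% of the sum. Ccnd2 had 8626, 9249 and 4995 counts, or 36.2, 36.3 and 17.8 FPKM. It was lower with OSM than with vehicle by 2.04 times (log2 -1.03), but its interval of -1.08 to -0.98 reached inside 2-fold, so it was not called. Ccnd2 did not differ between IL-6 and vehicle beyond counting error (log2 0.00, interval -0.04 to 0.04).

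Ccnd1 was low throughout, with 213, 139 and 121 counts, and both cytokine libraries lay under vehicle (log2 -0.72 with IL-6, interval -1.03 to -0.40, and -1.06 with OSM, interval -1.39 to -0.73). Ccnd3 had 894, 832 and 988 counts, with an interval that held 0 for OSM (log2 -0.10) and lay below 0 for IL-6 (log2 -0.20, interval -0.34 to -0.07). Of the kinases, Cdk4 had 1348, 1459 and 2244 counts, or 16.4, 16.6 and 23.1 FPKM, and was 1.41 times vehicle with OSM (log2 0.49, interval 0.40 to 0.59). Cdk6 stayed between 141 and 174 counts. In the OSM library, Ccnd1 and Ccnd2 thus lay below vehicle and Cdk4 above it, and none of them was called.

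For the next step of the cycle, Ccne1, which encodes cyclin E1, had 133, 108 and 245 counts, or 1.98, 1.5 and 3.08 FPKM, the highest level of its group with vehicle and OSM. With IL-6 its kinase Cdk2 was higher, at 2.11 FPKM. The log2 fold change of Ccne1 against vehicle was 0.64 for OSM (interval 0.33 to 0.96) and -0.40 for IL-6 (interval -0.78 to -0.02), and neither was called. Cdk2 and Ccne2 had between 63 and 356 counts. With IL-6 both lay above vehicle without a call, Cdk2 by log2 0.48 (interval 0.23 to 0.72) and Ccne2 by 0.65 (interval 0.19 to 1.12). With OSM their intervals held 0 (log2 0.09 and 0.17). Ccna2, which encodes the cyclin A of S phase and G2, had 1, 2 and 0 counts and was not compared.

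The pocket proteins, which hold E2F factors in check, were lower with OSM in sum, at 9.84, 9.33 and 5.02 FPKM. Rbl2, which encodes p130, the pocket protein typical of resting cells, had 1010, 985 and 539 counts, or 5.28, 4.81 and 2.39 FPKM. It was 2.22 times lower with OSM than with vehicle (log2 -1.15), and its interval, -1.3 to -0.995, ended just inside 2-fold. Rb1 had 681, 716 and 445 counts (log2 -0.86, interval -1.03 to -0.68). Rbl1, which encodes p107 and is itself known as an E2F target, had 13, 20 and 27 counts. IL-6 and vehicle differed by less than 0.14 on the log2 scale for Rb1 and Rbl2.

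The E2F group was carried by members that are known as repressors or work with pocket proteins in resting cells. E2f4 had 950, 1108 and 2336 counts, or 15.3, 16.7 and 31.9 FPKM, and was 2.08 times vehicle with OSM (log2 1.06, interval 0.95 to 1.17), so that the interval straddled 2-fold. Without the length trend described below, E2f4 became 1.73 times vehicle. Its share of the summed E2F level was 35.1%, 37.6% and 53.8%. E2f6, a repressor that does not bind pocket proteins, was nearly level at 21.6, 20.5 and 20.3 FPKM, from 3095, 3151 and 3436 counts (log2 -0.09 for OSM). E2f3 had 596, 738 and 521 counts, or 4.34, 5.02 and 3.21 FPKM, with a log2 fold change of -0.44 for OSM (interval -0.61 to -0.26) and 0.21 for IL-6. E2f1, the activator best known from S phase entry, had 33, 34 and 69 counts, E2f5 had 86, 82 and 167, and E2f2, E2f7 and E2f8 had at most 8 counts in any library.

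The replication genes had a spread of directions and no call. MCM2 to MCM7 form the ring that unwinds DNA, and PCNA is the clamp that holds polymerases on it. Pcna had 1106, 1310 and 1787 counts, or 18.2, 20.1 and 24.9 FPKM, and a log2 fold change of 0.45 for OSM (interval 0.34 to 0.56) and 0.14 for IL-6. The 6 Mcm genes lay between 0.360 and 4.22 FPKM. Against vehicle, their log2 fold changes with OSM ran from -0.56 (Mcm2) to 0.71 (Mcm3), although the 6 proteins work as 1 complex. Their median with Pcna was -0.24.

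The replication genes share letters that E2F factors bind. The 8-letter forms TTTCCCGC, TTTGGCGC, TTCCCGCC and TTTCGCGC were searched on both strands, and some of these overlap one another in a run. They were found in 4 of the 6 replication genes with a window, 11 of all 39 member genes (28.2%) and 4.00% of all genes in the table. No gene with a window in the D cyclin, CIP/KIP or stress-inducible groups held one. The runs of 30 bases below show 1 match per gene, read along the strand of the gene, with the letters in capitals.
Mcm3 (chr1:20820263-20820292, minus strand): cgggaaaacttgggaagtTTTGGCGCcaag
Mcm5 (chr8:75109345-75109374, plus strand): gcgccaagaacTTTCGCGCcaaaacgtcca
Mcm6 (chr1:128359734-128359763, minus strand): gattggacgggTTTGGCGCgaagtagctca
Mcm7 (chr5:138171849-138171878, minus strand): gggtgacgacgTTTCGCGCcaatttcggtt
Rbl1 (chr2:157204534-157204563, minus strand): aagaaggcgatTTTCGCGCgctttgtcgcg
Cdk1 (chr10:69353025-69353054, minus strand): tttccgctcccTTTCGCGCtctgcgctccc
These 6 genes did not share a direction with OSM. Mcm3 was above vehicle (log2 0.71), Mcm7 below it (log2 -0.55), Mcm5 and Mcm6 had intervals that held 0, Rbl1 had at most 27 counts, and Cdk1 had 2 counts with IL-6 and 0 in the others.

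The 11 genes of mitosis and proliferation were near the limit of detection. Together they had 123 counts with vehicle, 85 with IL-6 and 126 with OSM, or 1.49, 0.994 and 1.58 FPKM, and no gene exceeded 66 counts. Aurka, the Aurora kinase of the spindle poles, was the highest, with 56, 31 and 66 counts, or 0.875, 0.452 and 0.873 FPKM. Its log2 fold change was 0.00 for OSM (interval -0.54 to 0.54) and -0.95 for IL-6 (interval -1.64 to -0.29). Mki67, the gene of the proliferation marker Ki-67, had 6, 5 and 6 counts, and 0 to 4 counts were found for Cdk1, Aurkb, Plk1 and Bub1. Differences in mitotic genes at this level were mostly not detectable at this depth.

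The calls in this group rest on few counts. Top2a (chr11:98883769-98915015, minus strand), the topoisomerase that untangles chromosomes, had 20 counts with vehicle, 4 with IL-6 and 3 with OSM, or 0.0877, 0.0164 and 0.0111 FPKM. OSM was called lower (log2 -2.98, interval -5.37 to -1.23). IL-6 was lower than vehicle too (log2 -2.42), without a call because its interval of -4.43 to -0.84 reached inside 2-fold, so the vehicle library held the high value. Ccnb2 (chr9:70314974-70328829, minus strand), which encodes cyclin B2, had 3, 0 and 23 counts. It was called higher with OSM than with IL-6, at least 6.95-fold when the 0 is replaced by a floor of 3 counts (log2 2.80, with 2.38 as the lower end of the interval for the 23 counts), and not called against vehicle (log2 2.70, interval 0.97 to 5.08). Cdc20, an activator of the anaphase-promoting complex, was low with OSM at 12, 12 and 2 counts (log2 -2.83, interval -6.03 to -0.66). Ccnb1, which encodes the other B cyclin counted here, had 11, 13 and 7 counts, and Anln, which encodes the contractile ring protein anillin, had 15, 10 and 18.

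These genes share the cell cycle genes homology region (CHR), TTTGAA or TTCGAA, through which the DREAM and MuvB complexes are known to act on genes of G2 and mitosis. With both strands searched, 9 of the 10 genes of this group with a window held it, Ccnb1 being the exception. It was found in 16 of all 39 member genes (41.0%) and in 21.7% of all genes. The runs of 30 bases below show 1 match per gene, with the letters in capitals, to set the sequences beside the near absence of their transcripts.
Cdk1 (chr10:69352910-69352939, minus strand): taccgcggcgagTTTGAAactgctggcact
Cdc20 (chr4:118437344-118437373, minus strand): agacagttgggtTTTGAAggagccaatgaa
Ccnb2 (chr9:70421533-70421562, minus strand): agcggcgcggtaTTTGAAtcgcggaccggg
Plk1 (chr7:122159453-122159482, plus strand): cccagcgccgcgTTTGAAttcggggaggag
Bub1 (chr2:127831828-127831857, minus strand): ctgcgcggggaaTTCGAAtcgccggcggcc
Aurka (chr2:172370521-172370550, minus strand): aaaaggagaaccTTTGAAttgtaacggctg
Mki67 (chr7:135716460-135716489, minus strand): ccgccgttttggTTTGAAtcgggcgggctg
Anln (chr9:22389161-22389190, minus strand): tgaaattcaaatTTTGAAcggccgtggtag
Top2a (chr11:99024292-99024321, minus strand): ggcggtcttttgTTCGAAtaaaagacgatc
Outside this group the letters were found in Mcm2, Mcm7, Rbl2, Cdkn2b, E2f2, E2f3 and E2f8. A match of 6 letters describes the sequence and is not a binding site.

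Gene length moved with the OSM values. Over 9445 protein-coding genes that averaged 100 counts or more, short genes lay above vehicle and long genes below it, with a median log2 fold change of 0.55 at a median length of 1144 bases and -0.81 at 15976 bases. Across genes the Spearman correlation of log2 fold change with length was -0.52 for these genes and -0.67 for the 41 cell cycle genes compared, given as a description since all values share the same libraries. The genes called higher had a median length of 1581.5 bases, and those not called had 4321.5 bases. For IL-6 against vehicle the correlation over coding genes was -0.07.

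With the length trend of the coding genes subtracted, Gadd45g remained at 3.10 times vehicle (log2 1.63, interval 1.57 to 1.69) and Cdkn1c at 5.37 times, and these 2 kept their calls. Cdkn2d fell from 1.53 to 1.11 on the log2 scale (interval 0.92 to 1.3) and Gadd45b from 1.37 to 0.95 (interval 0.84 to 1.06), and both lost the call, as did Top2a (interval -5.04 to -0.89). Cdc20, a short gene with a low OSM value, was then called lower (log2 -3.19). Ccnd2, a long gene, moved to -0.67 and Rbl2 to -0.91, while Ccnd1 stayed at -1.05 and Plk2 at -0.72. E2f4 fell from 1.06 to 0.79, Gadd45a from 0.86 to 0.47, Cdk4 from 0.49 to 0.33 and Pcna from 0.45 to 0.18. Cdk6, also a long gene, moved up from 0.06 to 0.71 (interval 0.38 to 1.04). Cdkn1a and the 3 Gadd45 genes stayed above vehicle, and Ccnd2, Rb1 and Rbl2 stayed below it.

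**Figure D4:**
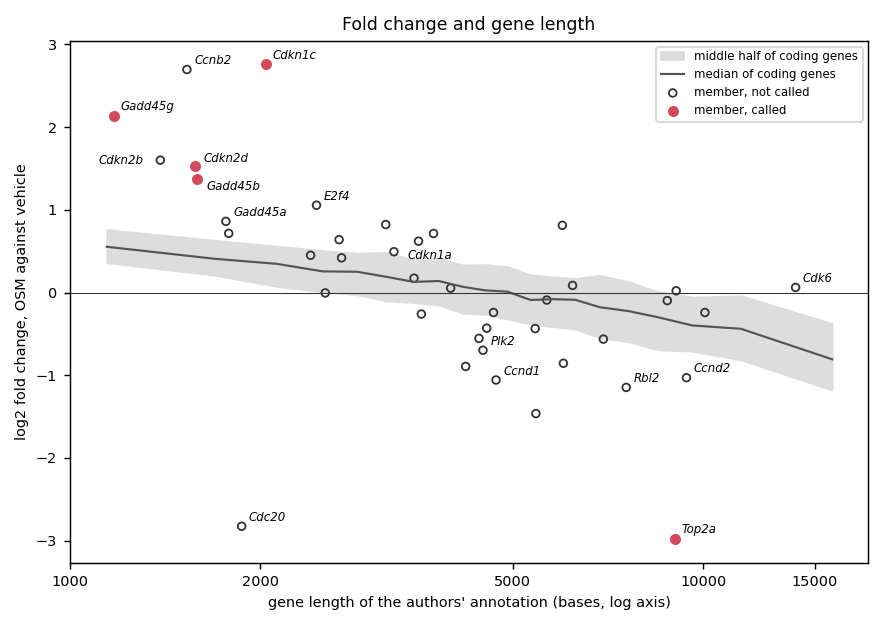
Log2 fold change of OSM against vehicle by gene length (log axis) for the 41 compared cell cycle genes, with the median (line) and the middle 50% (grey band) of 9445 protein-coding genes in 20 bins of length. Called genes are filled red, and Gadd45g, Cdkn1c, Cdkn2d and Gadd45b are short genes above the band, while Top2a, a long gene, lies below it.

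Some values are uncertain because of how reads can be shared. No source used here says whether counting used the strand, and several members overlap a gene on the other strand, among them Cdc20 with Elovl1 (593, 560 and 1213 counts), Ccnd1 with LTO1, Cdk4 with Tspan31, Rbl2 with Aktip, E2f5 with Rbis and Mcm7 with Cops6. Gadd45g, Gadd45b, Cdkn2d, Cdkn1c, Top2a and Ccnb2, the genes called in any comparison, overlap no gene that had 10 or more counts. Near-identical copies elsewhere in the genome (at least 97% identity) cover 82.8% of the Pcna transcript, 80.2% of Mcm7, 75.3% of Ccnb1 and 5.19% of Cdk4, and 42 of the 49 genes have none. At 90% identity, copies also cover 96.4% of Plk1, 95.9% of Ccnd3 and 93.5% of Cdc20. At that identity they cover between 20.6% and 46.1% of E2f6, Mcm4, Mcm6 and the called gene Ccnb2.

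Few other genes of the same pathway were called. Of 90 further cell cycle genes, 83 were compared between OSM and vehicle, and 0 were called higher and 2 lower, where 3.74% and 5.43% of all genes were. The interval lay above 0 for 19 of the 83 and below 0 for 27. Bub1b, a spindle checkpoint kinase, had 88 counts with vehicle, 58 with IL-6 and 30 with OSM (log2 -1.79), and Pole, a replicative polymerase, had 62, 61 and 22 (log2 -1.74). The median over the 83 was -0.06. IL-6 against vehicle had 0 higher and 3 lower of 79 (1.77% and 1.74% of all genes), which were Gins2 with 28 against 0 counts, Skp2 with 18 against 2 and Plk3 with 32 against 7. OSM against IL-6 had 4 higher of 79, among them Gins2, Ube2c and Plk3, and 0 lower (4.24% and 5.42% of all genes), and each of these genes had under 10 counts with IL-6.

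Some members, Cdkn1a and Gadd45a among them, are known p53 targets, and these were not examined as a set. Instead, 18 p53 targets that are not members, such as Mdm2 and Bax, without Trp53, were examined. None was called in any comparison, in a list so short that the share of all genes called higher with OSM, 3.74%, comes to less than 1 gene. With OSM the interval lay above 0 for 8 of the 18 and below 0 for 7, and their median log2 fold change was 0.07 with OSM and -0.04 with IL-6, each against vehicle, and 0.02 between the cytokines. Trp53 had 1216, 1267 and 1887 counts and a log2 fold change of 0.39 for OSM (interval 0.29 to 0.50).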

How the data were processed

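RNAseq was done on 3 libraries of ACMs, 1 per condition. According to the submitters' processing notes, paired reads were filtered with fastp, aligned to mm39 with HISAT2 2.2.1 and assigned with featureCounts 2.0.6, and edgeR 4.0.16 was used. The authors deposited raw counts for each gene, and FPKM, in which the counts are divided by gene length and library size.

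TMM factors were computed here for each pair of libraries with edgeR 4.0.16 in R 4.3.3. Genes with at least 10 counts over a pair were compared, with 95% Clopper-Pearson intervals of the counts given their sum (scipy 1.17.1). Intervals and floors (3 counts) cover counting error only, and each comparison is of libraries, not of conditions. The script that makes the calls was tested on simulated data. The length trend was a lowess fit (fraction 0.3) over coding genes with a mean of at least 100 counts. The alternatives were other scalings (DESeq2 1.42.0), filters, thresholds, thinning, an assumed dispersion, FPKM ratios and the length trend.

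The members and lists were chosen with earlier results of these data known. The rule for values named members called in any pair, at 5 FPKM or more in any library, or highest in their group. For these, counts and the fold change of OSM against vehicle were given, and intervals or other fold changes for some of them only. Other members given with values, among them Ccnd1, Rb1, Cdkn2b and Cdc20, are outside that rule and were chosen with their values in view. Promoter windows are those of RefSeq, in which 39 members matched by symbol and Ccnd1, Ccnd2, Ccne2, Ccna2, Cdkn1c, Rb1, E2f4, E2f5, Mcm4 and Aurkb did not. Copies were found by aligning GENCODE M39 transcripts to GRCm39.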

Additional observations from a re-analysis of the deposited data

How the results depend on the processing

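No paired analysis was possible because each condition is 1 library, and for the same reason no library could be left out. For OSM against vehicle, the 4 genes called higher became 8 with the whole interval beyond 1.5-fold, 7 by the point estimate alone, 7 by the FPKM ratio, 2 with the length trend removed and 0 by the exact test of edgeR with biological variation (BCV) set to 0.4. The 1 gene called lower became 7 at 1.5-fold, 6 by the point estimate, 6 by the FPKM ratio, 3 with total counts, 2 with no filter, 2 with thinned libraries, and 0 with at least 50 counts or a BCV of 0.4. For IL-6 against vehicle, 0 higher became 1 at 1.5-fold, by the point estimate and by the FPKM ratio, and 0 lower became 1, 3 and 3 under the same. For OSM against IL-6, 4 higher became 9 at 1.5-fold, 2 with the length trend removed and 0 with a BCV of 0.4, and 0 lower became 5 at 1.5-fold, 4 by the point estimate, 4 by the FPKM ratio and 1 with total counts. The 5 calls of OSM against vehicle were all kept with DESeq2 size factors, total counts, upper-quartile factors, no filter, thinning and a BCV of 0.2. How much such cultures vary cannot be read from 1 library per condition. Total counts added Ccnd2 and Rbl2, which lay at the edge of the rule. DESeq2 factors added Cdkn2b, thinning added Cdkn2b and Rbl2, and no filter added E2f7. Upper-quartile factors and a BCV of 0.2 each added Ccnb2 and Cdkn2b. The 4 genes called higher thus became 5 with DESeq2 factors or thinning, and 6 with upper-quartile factors or a BCV of 0.2. The medians moved by less than the spread between genes, although that of OSM against vehicle, 0.05, was -0.01 with total counts, and no called value changed direction under the alternatives run. Of the single-gene values under alternatives, 261 stayed within counting error and 32 moved beyond it. Genes under about 10 counts, which include most of the mitotic genes, are limited by depth.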
